A study of Mus musculus with 2 samples.

Results

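The solute carrier (Slc) genes are the named families of membrane transporters. In PK44 cells of the mouse yolk sac 153 Slc symbols were detected, including 5 that encode no transporter. The 153 were chosen by their cell counts. They are the rows whose symbol begins with Slc and a number and that had a count in 9 or more of the 87 cells. The tables held 373 such symbols among 23154 genes, and 225 of the 373 had a count in at least 1 cell. The rule used the number of cells with a count, so the detection and levels below are a description and are not tested. Just inside it, Slc18a1, Slc22a3, Slc38a3, Slc4a4 and Slc7a8 had a count in exactly 9 cells and 72 to 346 counts in all, and Slc35a3, Slc40a1 and Slc5a6 were outside it with a count in 8 cells and 68 to 93 counts.

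PK44 cells are hemogenic endothelial cells sorted as CD41-CD43-CD45-CD31+CD201+Kit+CD44+, and these came from E10.0 yolk sacs of mice on the C57BL/6 background. Single cells were sequenced by modified STRT-seq, in which a unique molecular identifier (UMI) marks each captured transcript. There were 43 cells in replicate 1 and 44 in replicate 2, with no treatment and no other condition, and the sources used here do not say how many embryos each library pooled. The libraries had 8932527 and 12706360 counts in all, the cells had 13218 to 956593, and no cell barcode was shared by the libraries.

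Transcripts of the sorted surface proteins were checked first. Pecam1 (CD31), Procr (CD201), Cd44 and Kit had a count in 86, 80, 85 and 66 of the 87 cells. Ptprc (CD45) had one in 3 cells and Spn (CD43) in 9, whereas Itga2b, which encodes the excluded CD41, had one in 56 cells at 65.0 and 37.8 CPM in replicates 1 and 2, where CPM is a gene's count divided by the library's total and multiplied by 1000000. The adult globins Hba-a1, Hba-a2, Hbb-bt and Hbb-bs had no count in any cell, and the embryonic globins Hbb-y, Hbb-bh1 and Hba-x had counts in 13, 5 and 2 cells. Only uniquely mapped reads were counted, so a read that matched more than 1 globin gene would be missing from these counts. In 3 cells, 2 of replicate 1 and 1 of replicate 2, Col1a1, Col1a2, Col3a1 and Lum each had 100 counts or more. Results without these collagen-rich cells are given below for the number of genes called and for Slc6a6 in the comparison by Gja5.

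Solute carriers move nutrients, ions and metabolites across membranes, each family with its own fold and substrates. Some sit in the plasma membrane, others in the inner mitochondrial membrane, the Golgi apparatus or lysosomes. Runx1, the transcription factor required for blood formation from endothelium, and Gja5, a gap junction gene of arterial endothelium, were each used to divide the cells.

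The 153 genes summed to 6781 and 8143 CPM in the 2 libraries (7462 ± 963, SD, n = 2 libraries). UMI counts give 1 count for a transcript whatever its length, so levels of different genes are compared in CPM without division by length. Most of the genes were low. Their median mean level was 19.1 CPM, against 38 CPM for all 9985 genes with a count in 9 or more cells, and their median detection was 30 of 87 cells against 42. Only 15 genes reached 100 CPM, 73 reached 20 CPM and 35 were under 10 CPM. A cell of replicate 1 had counts of 19 to 93 of the 153 genes (median 45) and a cell of replicate 2 of 29 to 120 (median 77.5). After each cell was thinned to 20000 counts, which left out 1 cell, the medians were 25 and 42.5 genes.

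**Figure D1:**
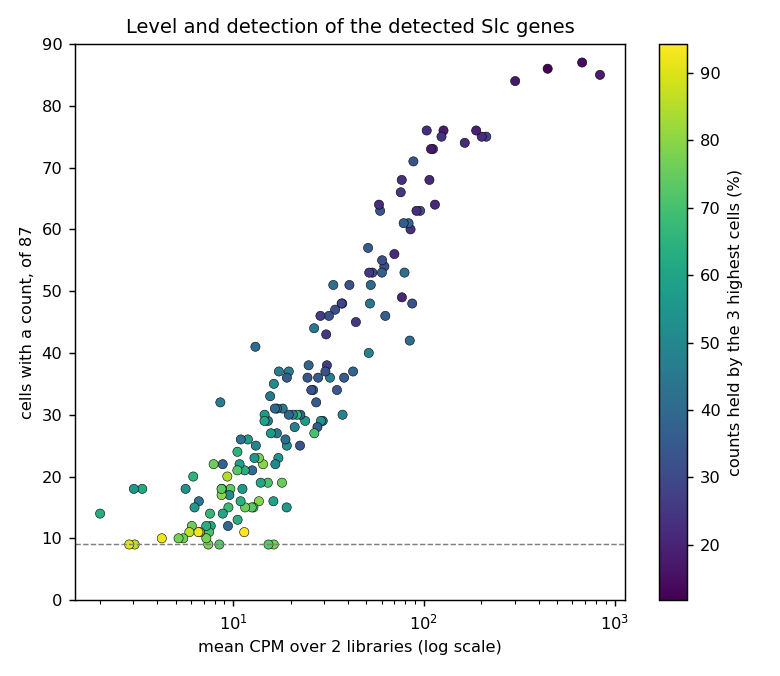
Each point is 1 of the 153 Slc genes, with its mean CPM over the 2 libraries on a log axis, the number of the 87 cells with a count on the y axis, and in colour the percentage of its counts held by its 3 highest cells. The dashed line marks the minimum of 9 cells, and 4 genes had a count in 80 or more cells.

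Counts of single genes were carried by few cells. In 65 of the 153 genes more than 50% of all counts came from the 3 highest cells, and the median over the genes was 45.2%. Of the 153, 94 (61.4%) were higher in replicate 2 than in replicate 1, against 52.6% of all genes with a count in 9 or more cells. For 17 genes the libraries differed by more than 4-fold in CPM + 1, and Slc39a14, a zinc and iron importer, had no count in replicate 1 and a count in 14 cells of replicate 2. Neither the share of the 3 highest cells nor the 4-fold count was computed over all genes, so neither shows a trait of Slc genes.

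Carriers of the inner mitochondrial membrane, the Slc25 family, held the greatest share of the transcripts. Their 29 genes summed to 2366 and 3051 CPM in replicates 1 and 2, a mean of 36.2% of all counts of the 153 genes. Amino acid transporters followed with 20 genes at 1217 and 1352 CPM (17.3%), and transporters of zinc, copper, iron and heme with 21 genes at 830 and 799.8 CPM (11%). The values of these 3 classes did not overlap between classes in either library. Nucleotide sugar and acetyl-CoA transporters of the Golgi apparatus and endoplasmic reticulum (19 genes, 465 and 540 CPM), sugar transporters (10 genes, 475 and 420 CPM) and inorganic ion transporters (21 genes, 403 and 489 CPM) came next, and their ranges over the 2 libraries overlapped one another. Nucleoside transporters (4 genes), transporters of organic ions, peptides and vesicular cargo (9 genes), of vitamins and choline (6 genes), of mono- and dicarboxylates (4 genes) and of fatty and bile acids (5 genes) summed to less than the first 6 classes in both libraries. The 5 symbols named for an Slc gene that encode no transporter were Slc9a3r2, Slc9a3r1, Slc4a1ap, Slc7a6os and Slc2a4rg-ps.

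**Figure D2:**
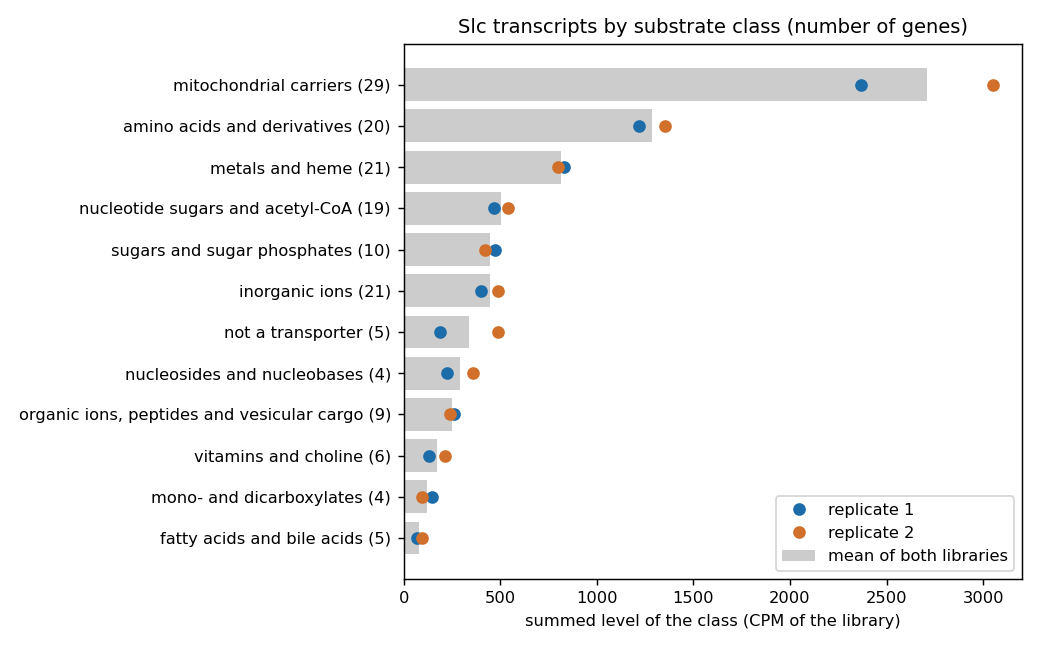
Grey bars give the mean over 2 libraries of the summed CPM of each substrate class, with the number of genes in brackets, and points give each library. Mitochondrial carriers stood highest in both libraries, at 2366 and 3051 CPM.

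Within the mitochondrial class, 3 genes held 72.3% of the counts. Slc25a5 and Slc25a4 encode ADP/ATP carriers, which exchange matrix ATP for cytosolic ADP, and Slc25a3 encodes the phosphate carrier that supplies ATP synthase. The 250 bases before the RefSeq start of each are shown because these 3 genes carried the class, taken from the RefSeq promoter table on build GRCm38.p6, 5′ to 3′ on the strand of the gene. Capitals mark the GC box GGGCGG on either strand. The Slc25a5 stretch is on the plus strand of chrX:36795347-36795596, Slc25a3 on the minus strand of chr10:91123968-91124217, and Slc25a4 on the minus strand of chr8:46211063-46211312. The GENCODE spans of Slc25a3 and Slc25a4 start further upstream than the RefSeq starts, so part of both stretches lies inside those spans.
Slc25a5: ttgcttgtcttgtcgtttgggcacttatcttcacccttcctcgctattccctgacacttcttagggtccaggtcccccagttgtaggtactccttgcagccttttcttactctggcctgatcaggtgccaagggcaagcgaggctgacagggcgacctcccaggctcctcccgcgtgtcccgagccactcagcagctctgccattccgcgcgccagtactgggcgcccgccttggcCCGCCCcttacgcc
Slc25a3: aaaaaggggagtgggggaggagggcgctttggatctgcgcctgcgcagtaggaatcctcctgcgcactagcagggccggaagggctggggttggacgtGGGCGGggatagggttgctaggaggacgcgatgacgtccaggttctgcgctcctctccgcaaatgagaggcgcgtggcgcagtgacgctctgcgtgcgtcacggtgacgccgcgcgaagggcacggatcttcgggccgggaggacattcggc
Slc25a4: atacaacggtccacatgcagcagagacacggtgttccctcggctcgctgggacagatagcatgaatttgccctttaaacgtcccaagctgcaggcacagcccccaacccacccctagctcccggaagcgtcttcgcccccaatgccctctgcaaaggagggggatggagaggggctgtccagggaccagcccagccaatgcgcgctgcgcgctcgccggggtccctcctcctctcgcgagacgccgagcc
The GC box was found in the first 2 of these stretches and not in that of Slc25a4. It was held by 32.7% of all 32851 windows of 250 bases, against 62.6% of the 163 windows of 117 of the 153 genes and 70.4% of the 27 windows of 22 Slc25 genes. All windows were taken whether or not their gene was detected, whereas the 153 genes were chosen by detection. The share over detected genes was not computed, so these shares show no trait of Slc genes. The ETS motif CCGGAAGT, also searched on both strands, was in none of the 3 stretches and in 3.07% of the windows of the 153 genes, against 2.88% of all windows. The letters are a description of these windows and name no bound factor.

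Slc25a5 (chrX:36795651-36798807) had 665 and 1011 CPM in the 2 libraries and ranked 154th of all genes by mean level. Its lowest, median and highest cells were at 0, 493 and 1621 CPM in replicate 1 and at 127, 791 and 2258 CPM in replicate 2. Slc25a3 (chr10:91116574-91124059) had 724 and 627 CPM and was the only one of the 153 genes with a count in every cell (87 of 87, exact 95% interval 95.8% to 100%, counting error only). Slc25a4 (chr8:46206797-46211284), the ADP/ATP carrier of muscle and heart, had 383 and 508 CPM in 86 cells. The order of Slc25a5 and Slc25a3 turned around between the libraries, so their levels did not differ beyond the spread, and Slc25a4 was below both in each library. The most abundant of the 153 genes in a cell was Slc25a3 in 14 and Slc25a5 in 11 of the 43 cells of replicate 1, and Slc25a5 in 23 and Slc25a3 in 5 of the 44 cells of replicate 2. Across cells Slc25a4 and Slc25a5 were nearly unrelated, with Spearman's rho of -0.04 (n = 43) and 0.03 (n = 44). Reads of Slc25a5 could also match the processed pseudogene Slc25a5-ps, so its count rests on how uniquely mapped reads were assigned.

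The other mitochondrial carriers were lower than these 3. Slc25a11, the oxoglutarate carrier of the malate-aspartate shuttle, had 67.3 and 116 CPM, and 189 exonic bases of it lie opposite Rnf167, which the unstated strand setting of the counting cannot separate. Slc25a51, the mitochondrial NAD importer, had 81.4 and 84.8 CPM. Slc25a39, which imports glutathione into mitochondria, had 18.2 CPM in 12 cells of replicate 1 and 140.0 CPM in 41 cells of replicate 2. Slc25a11, Slc25a51, Slc25a39 and Slc25a28 were named after their values were seen, as were Slc7a6, Slc7a7, Slc31a1, Slc31a2, Slc50a1 and Slc39a14 among the levels. The iron importers of the inner membrane, Slc25a37 and Slc25a28, had 16.3 and 18.4 CPM and 19.1 and 12.1 CPM.

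Among amino acid transporters, Slc38a2 (SNAT2, sodium-coupled uptake of small neutral amino acids, chr15:96687392-96699730) led with 290 and 312 CPM in 84 cells. Its lowest, median and highest cells were at 0, 219 and 2083 CPM in replicate 1 and at 6.92, 242 and 1415 CPM in replicate 2. Slc6a6, the taurine and beta-alanine transporter (chr6:91684053-91759066), came next with 161 and 264 CPM in 75 cells, and Slc38a1 (SNAT1, glutamine uptake) had 201 and 127 CPM in 74 cells. The order of Slc6a6 and Slc38a1 differed between the libraries. Slc3a2, the heavy chain that carries the light chains of the Slc7 family to the plasma membrane, had 129 and 119 CPM in 75 cells. Its partners were lower. Slc7a6 had 56.6 and 19.7 CPM, Slc7a5 (LAT1) 7.05 and 16.8 CPM, Slc7a8 9.85 and 4.96 CPM and Slc7a7 4.70 and 14.1 CPM, and Slc7a11, the light chain of the cystine importer, had no count in 87 cells. A count in 0 of 87 cells allows a share of up to 3.45% of cells with a count, taken as 3 of 87 and not as a Clopper-Pearson bound. Across cells Slc3a2 and Slc7a5 had a rho of 0.09 and -0.12, and Slc3a2 and Slc7a6 of 0.11 and 0.15.

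The glucose transporters Slc2a1 (GLUT1, chr4:119108711-119137983) and Slc2a3 (GLUT3) had 104 and 102 CPM in 76 cells and 70.0 and 83.1 CPM in 68 cells. Slc2a1 was the higher in both libraries. Slc2a2 and Slc2a4 had no count. Slc5a3, the sodium and myo-inositol cotransporter, had 104 and 64.5 CPM in 42 cells, and 159 of its exonic bases overlap Mrps6 on the same strand, so the pair may share counts. Slc45a4 had 44.9 and 60.4 CPM, and the sugar exporter Slc50a1 87 and 33.5 CPM.

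The remaining classes were each led by a few genes. Slc39a7, which releases zinc from the endoplasmic reticulum, had 128 and 126 CPM, and the plasma membrane zinc importer Slc39a10 had 140.0 and 88.9 CPM. The copper transporters Slc31a1 and Slc31a2 had 48.5 and 75.6 CPM and 78.7 and 95 CPM, whereas the iron exporter Slc40a1, outside the rule, was at 0.336 and 7.08 CPM. Slc43a3, a nucleobase transporter of endothelium, had 139 and 237 CPM in 76 cells and held 64.4% of its class, and the equilibrative nucleoside transporter Slc29a1 had 65.7 and 104 CPM. Slc44a2, a choline transporter, had 82.5 and 141 CPM and held 64.0% of the vitamin and choline class. Slc18a2, the vesicular monoamine transporter VMAT2, had 119 and 98.6 CPM in 73 of 87 cells (83.9%, exact 95% interval 74.5% to 90.9%). Slc12a2, the sodium-potassium-chloride cotransporter, had 107 and 83.8 CPM, and the phosphate importer Slc20a1 94.2 and 62.5 CPM. The monocarboxylate transporters were led by Slc16a1 (MCT1), at 71.0 and 32.3 CPM, with Slc16a13 at 59.2 and 43.6 CPM, and their chaperone Bsg had 377 and 572 CPM in 86 cells. Slc9a3r2, a scaffold protein that binds sodium-proton exchangers and is not a carrier, had 81.7 and 320.3 CPM and accounted for most of the difference between libraries in the class of symbols that encode no transporter.

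**Figure D3:**
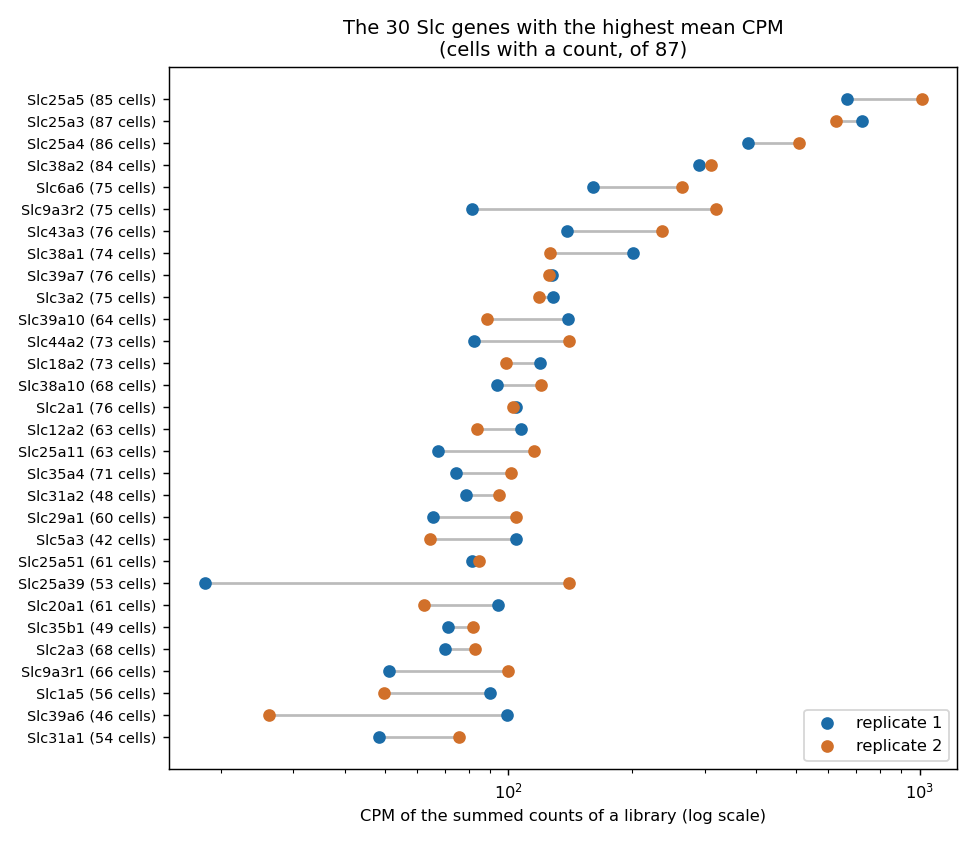
The 30 Slc genes with the highest mean CPM, with the number of the 87 cells that had a count in brackets, and a point for each library on a log axis. The 3 mitochondrial carriers Slc25a5, Slc25a3 and Slc25a4 lay above all others in both libraries, and Slc25a39 and Slc9a3r2 had wide gaps between the libraries.

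Further genes were named by class or from a list of well-known transporters. The Golgi and endoplasmic reticulum transporters Slc35a4 and Slc35b1 had 74.7 and 102 CPM and 71.3 and 82.1 CPM, and 152 exonic bases of Slc35a4 lie opposite Apbb3. The fatty acid transport proteins Slc27a4 and Slc27a3 had 19.9 and 22.1 CPM and 9.40 and 29.7 CPM. Slc52a2, a riboflavin transporter, had 25.2 and 24.6 CPM, and Slc22a23 45 and 40.1 CPM. These stood close between libraries except for Slc27a3. The arginine transporter Slc7a1 had 26.5 and 34.4 CPM in 37 cells, the lactate exporter Slc16a3 (MCT4) 9.63 and 12.7 CPM in 18 cells, and the iron importer Slc11a2 (DMT1) 20.04 and 5.51 CPM in 15 cells. Slc39a8, an importer of zinc and manganese, had 10.5 and 3.94 CPM, and the mitochondrial glycine carrier Slc25a38, used for heme synthesis, had 3.81 and 8.34 CPM, each in 12 cells. Among symbols that encode no transporter, the scaffold Slc9a3r1 had 51.3 and 99.9 CPM and Slc4a1ap 23.6 and 28.9 CPM.

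Transporters of 40 families were among the 153 genes. In 26 families at least 2 genes were detected, and in 16 of these the same gene led in both libraries. Slc6a6 made up 92.7% and 98.8% of the Slc6 family, which includes the neurotransmitter transporters, and Slc38a2 made up 45.6% and 46% of the Slc38 family. Slc2a1 held 53.8% and 49.2% of the Slc2 family.

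To ask how these transporters relate to Runx1, the cells of each library were divided at that library's median Runx1 CPM, and counts were summed to 4 values per gene, Runx1-low and Runx1-high in each library. Runx1 itself had 15.8 and 2.94 CPM in the low sums and 457 and 226 CPM in the high sums of replicates 1 and 2. Of the 153 genes, 150 passed the filter on low counts, all but Slc35g1, Slc12a8 and Slc22a3. None of the 150 passed an adjusted p of 0.05 in edgeR's quasi-likelihood test (Benjamini-Hochberg over 10629 genes, of which 0.00941% were called), and 6 had an unadjusted p under 0.05 against 5.53% of all genes. With the library as a block 0 of the 150 were called, against 1.56% of all genes (0.376% higher and 1.19% lower in Runx1-high cells), and 13 had an unadjusted p under 0.05 against 8.66% of all genes. DESeq2 called 1, Slc25a40, a mitochondrial carrier counted in 15 cells, against 1.27% of all genes. Its counts were 215 and 156 in the Runx1-low sums and 0 and 23 in the Runx1-high sums (adjusted p 0.0292 by DESeq2, 0.793 by edgeR and 0.0810 by edgeR with the library block). The call rests on few cells and 1 tool, and after thinning Slc25a40 did not pass the filter on low counts. It supports nothing about the Slc genes as a group.

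The log2 fold changes of the 150 genes between Runx1-high and Runx1-low cells had a median of -0.27 (-0.25 in replicate 1 and -0.30 in replicate 2), against -0.01 over all genes tested. The median was -0.13 with the library block and -0.10 after thinning. Thinned cells were divided again on their thinned counts, into 25 Runx1-low and 19 Runx1-high cells in replicate 2. Of the 150, 65 were higher and 85 lower in Runx1-high cells, that is 43.3% higher against 49.7% of all genes. The 4 sums of a gene did not overlap between groups for 58 of the 150 (38.7%), against 37.8% of all genes, so the share was near the background. The lower genes among them numbered 37, against 17.1% of all genes, and the higher 21, against 20.7%. The direction was the same in both libraries for 86 genes, against 55.4% of all genes. By class, 16 of the 21 metal and heme transporters were lower in Runx1-high cells, with a median of -0.63, and 12 of the 20 amino acid transporters were higher, with a median of 0.30. Other classes leaned in the fold changes over both libraries. Lower were 12 of 18 nucleotide sugar and acetyl-CoA (median -0.31), 13 of 20 inorganic ion (-0.31) and 6 of 8 organic ion, peptide and vesicular cargo transporters (-0.60). Their medians in replicates 1 and 2 were -0.86 and 0.18, 1.72 and -0.93, and -0.23 and -1.47. The first 2 of these classes thus changed sign between the libraries. Higher were 4 of 6 vitamin and choline transporters (0.68). The mitochondrial carriers divided into 16 higher and 13 lower, with a median of 0.15. None of these genes passed the test, and the class values are given as a description.

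In each direction 5 genes at 20 CPM or more were named by the size of the fold change among those with the same direction in both libraries. Lower in the Runx1-high sums were Slc8a1 (sodium-calcium exchanger), Slc37a3, Slc45a4, Slc12a7 (potassium-chloride cotransporter) and Slc39a1 (zinc importer), with log2 fold changes of -2.37 to -2.11. Slc45a4 had 80.1 and 125 CPM in the low sums and 25.5 and 17 CPM in the high sums, a log2 fold change of -2.30 (SE 0.68, adjusted p 0.720 by edgeR's quasi-likelihood test). Higher were Slc1a5, Slc4a7, Slc43a1, Slc25a10 and Slc48a1, with 1.07 to 1.44. Slc1a5 (ASCT2, glutamine and neutral amino acid exchange) had 49.5 and 16.5 CPM in the low sums and 113 and 72.1 CPM in the high sums, so that the groups did not overlap, with a log2 fold change of 1.44 (SE 0.75, adjusted p 0.919 by edgeR's quasi-likelihood test). It was 0.48 after thinning, with and without the block. Slc25a5, the most abundant gene, had 461 and 696 CPM in the low sums and 777 and 1223 CPM in the high sums, a log2 fold change of 0.76 (SE 0.39, adjusted p 0.914, and 0.238 with the library block, by edgeR's quasi-likelihood test). Over the 10 settings tried its log2 fold change was 0.65 to 0.90. Slc4a7 had 0 counts in the Runx1-low sum of replicate 1 and 301 in the high sum, but 203 and 321 in replicate 2.

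Depth and cell composition moved with Runx1. Runx1-high cells had a median of 260240 counts in replicate 1 and 271734 in replicate 2, whereas Runx1-low cells had 95376 and 213444. The 7 mesenchymal markers summed to 2296 and 804 CPM in the Runx1-low sums and to 54.7 and 29.2 CPM in the Runx1-high sums, and the 8 endothelial markers to 3802 and 6024 CPM against 1838 and 3376 CPM. The 6 arterial markers summed to 1546 and 3163 CPM in the low and 264 and 836 CPM in the high sums. The 6 myeloid markers were at 38.5 and 20.2 CPM against 193 and 109 CPM, the 6 hematopoietic markers at 538 and 85.0 CPM against 1041 and 620 CPM, and the 8 proliferation markers at 2172 and 2178 CPM against 3080 and 2769 CPM. The 4 megakaryocyte markers went opposite ways in the 2 libraries, 171 and 48.8 CPM against 14.1 and 109.8 CPM. The 10 red cell markers stayed between 4.41 and 33.1 CPM in the 4 sums, and the 10 visceral endoderm markers between 0 and 19.9 CPM. The part of these differences in the values above was not tested, other than by leaving out the 3 collagen-rich cells, which again left 0 genes called. Fewer transcripts per cell and fewer expressing cells are not told apart by a sum.

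Across single cells the relation to Runx1 was weak. The median Spearman's rho of the Slc genes with Runx1 was 0.10 in replicate 1 (43 cells, 152 genes) and 0.08 in replicate 2 (44 cells, 153 genes), against 0.11 and 0.10 for all genes. All points share the depth of their cell, and after thinning to 20000 counts the medians were 0.01 and 0.02. For 17 of 152 genes (11.2%) the rho was at least 0.2 in size with the same sign in both libraries, against 11.9% of all genes. At the stricter bound of 0.3 in both there were 3 of 152 genes, against 2.79% of all genes, namely Slc1a5 (0.42 and 0.55, thinned 0.32 and 0.41), Slc38a1 (0.45 and 0.34, thinned 0.35 and 0.40) and the low Slc6a13 (0.37 and 0.38, thinned 0.07 and 0.09). The first 2 carry glutamine. Slc38a2, of the same family as Slc38a1, was lower in the Runx1-high sums, with log2 fold changes of -0.08 and -1.46 in replicates 1 and 2. Slc25a5 had 0.28 and 0.57 (thinned 0.25 and 0.50), and Slc43a3 had the opposite sign, -0.23 and -0.34 (thinned -0.24 and -0.48).

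Dividing the same cells at the median Gja5 CPM gave the second comparison, which shares its cells with the first. In replicate 1 the 21 Gja5-high cells comprised 10 Runx1-high and 11 Runx1-low cells, and in replicate 2 the 22 Gja5-high cells comprised 9 and 13. The median was 10 CPM in replicate 1 and 147 CPM in replicate 2, so the groups stand for different Gja5 levels in the 2 libraries. Gja5 had 6.30 and 55.0 CPM in the low sums and 245 and 1196 CPM in the high sums. Of the 153 genes 149 were tested, all but Slc35g1, Slc12a8, Slc19a2 and Slc22a3. None of the 149 was called by edgeR's quasi-likelihood test without a block (0% of 10653 genes were), and 8 had an unadjusted p under 0.05 against 4.06% of all genes. With the library as a block, 1 of the 149 was called, Slc6a6, against 0.882% of all genes (0.798% higher and 0.0845% lower in Gja5-high cells), and 13 had an unadjusted p under 0.05 against 7.72% of all genes. DESeq2 called 3, Slc6a6, Slc45a4 and Slc18a1, against 0.848% of all genes.

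The taurine transporter Slc6a6 was the gene with the most counts among these. It had 90.4 and 107 CPM in the Gja5-low sums and 231 and 426.5 CPM in the Gja5-high sums of replicates 1 and 2, so that both high sums lay above both low sums. The log2 fold change was 1.72 (SE 0.44, adjusted p 1.00, edgeR's quasi-likelihood test without a block), with 1.31 and 2.00 in the single libraries. With the library as a block it was 1.66 (SE 0.34) with an adjusted p of 0.00970, and DESeq2 gave an adjusted p of 0.0425. Over 10 settings the log2 fold change ran from 1.36 to 1.77 and the adjusted p from 0.00478 to 1.00. After thinning the cells and with the block it was 1.43 with an adjusted p of 0.135 in edgeR's test. Without the 3 collagen-rich cells and with the block it was 1.71 with an adjusted p of 0.00478. The call therefore depended on the library block or the tool and was lost after thinning, whereas the direction was kept in the settings tried. Thinned cells were divided again on their thinned counts, into 25 Gja5-low and 17 Gja5-high cells in replicate 1 against 22 and 21 before. Depth and grouping thus changed together, and their parts were not tested.

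The cells behind the Slc6a6 sums differed between the libraries. In replicate 2 the Gja5-low cells had a lowest, median and highest value of 0, 78.7 and 386 CPM and the Gja5-high cells of 0, 324 and 1511 CPM. In replicate 1 the corresponding values were 0, 13.1 and 1851 CPM and 0, 23.1 and 1579 CPM, so that the single highest cell was a Gja5-low cell and the groups overlapped over nearly all of their range. Spearman's rho of Slc6a6 with Gja5 was 0.15 in replicate 1 (43 cells) and 0.52 in replicate 2 (44 cells), and 0.02 and 0.55 after thinning. With Gja4, another arterial connexin, it was -0.10 and 0.53. Divided by Runx1, the sums of Slc6a6 were higher in the low group, 252 and 366 CPM in the low and 111 and 195 CPM in the high sums (log2 fold change -1.04, SE 0.46, adjusted p 0.879 by edgeR's quasi-likelihood test). This was -0.25 after thinning, with and without the block. Across cells, before thinning, the rho of Slc6a6 with Runx1 was 0.20 and 0.02. The lower Runx1-high sums were thus not matched by a negative rho, and the value of replicate 2 was near 0.

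**Figure D4:**
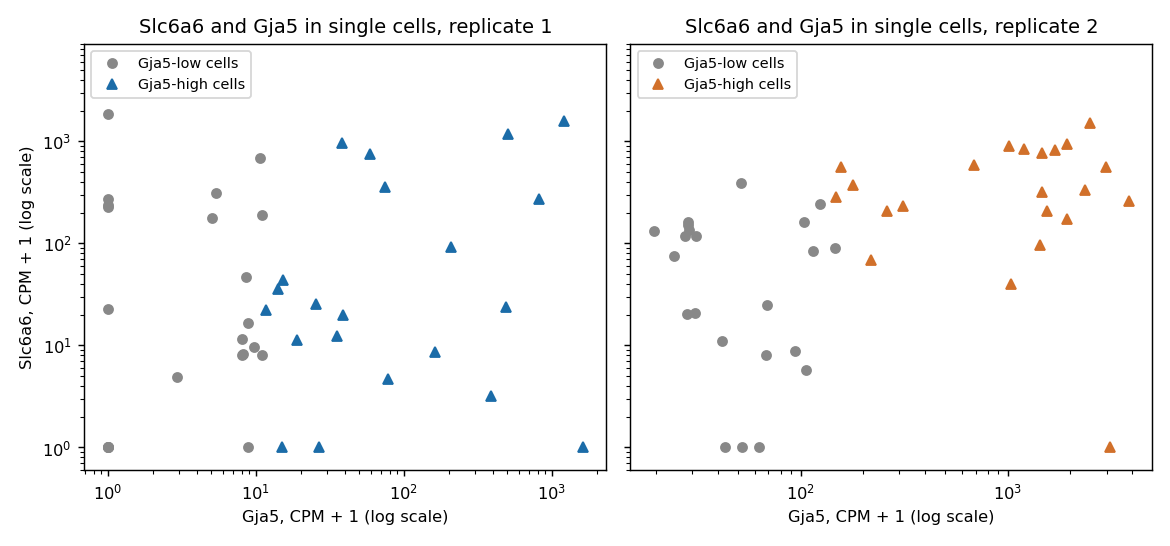
Each point is a cell, with Gja5 on the x axis and Slc6a6 on the y axis, both as CPM + 1 on log axes, for replicate 1 (left) and replicate 2 (right). Coloured triangles are Gja5-high and grey circles Gja5-low cells, and cells at 1 had no count. In replicate 2 the median of Slc6a6 was 324 CPM in Gja5-high and 78.7 CPM in Gja5-low cells, and in replicate 1 it was 23.1 and 13.1 CPM.

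Slc45a4 had 9.22 and 17.5 CPM in the Gja5-low sums and 80.3 and 105 CPM in the Gja5-high sums. Both high sums were above both low sums, and the log2 fold change was 2.79 (SE 0.69, adjusted p 1.00 by edgeR's quasi-likelihood test, 0.0801 with the library block and 0.0391 by DESeq2). It was 0.99 after thinning, where the adjusted p was 0.998. Single cells carried much of it, since the highest cells of the 2 libraries reached 1661 and 717 CPM and the medians of the Gja5-high cells were 11.5 and 16.4 CPM. Slc18a1 (VMAT1), counted in 9 cells, had 0 and 2 counts in the Gja5-low sums and 164 and 180 counts in the Gja5-high sums (adjusted p 0.00362 by DESeq2 and 0.133 by edgeR with the library block). Its 3 highest cells held 77.7% of its counts. It passed the filter on low counts only through the Gja5-high sums, so its call supports nothing about the Slc genes as a group.

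The other genes named for the Gja5 comparison by the same rule were Slc12a7, Slc8a1 and Slc7a1 among those higher and Slc48a1, Slc25a12, Slc7a6, Slc35a1 and Slc17a5 among those lower in Gja5-high sums. Slc12a7 had 0 and 71 counts in the low sums and 180 and 376 in the high sums. Slc48a1, which exports heme from lysosomes, had 48.6 and 28.1 CPM in the low sums and 2.01 and 3.37 CPM in the high sums, a log2 fold change of -3.84 (SE 1.22) with an adjusted p of 1.00 in edgeR's quasi-likelihood test and 0.398 with the block. Slc12a2, with more counts than these, had 41.8 and 54.8 CPM in the low sums and 172 and 114 CPM in the high sums (log2 fold change 1.56, SE 0.51, adjusted p 0.212 with the library block, edgeR's quasi-likelihood test). It falls outside the rule of naming and was chosen after its values were seen. Over all 149 genes, 79 were higher and 70 lower (53.0% higher against 49.9% of all genes), the median log2 fold change was 0.05 against -0.0029 over all genes, and the 4 sums did not overlap between groups for 55 (36.9%) against 34.4% of all genes, 30 of them higher (17.5% of all genes) and 25 lower (16.8%). For 84 the direction was the same in both libraries, against 54.1% of all genes.

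**Figure D5:**
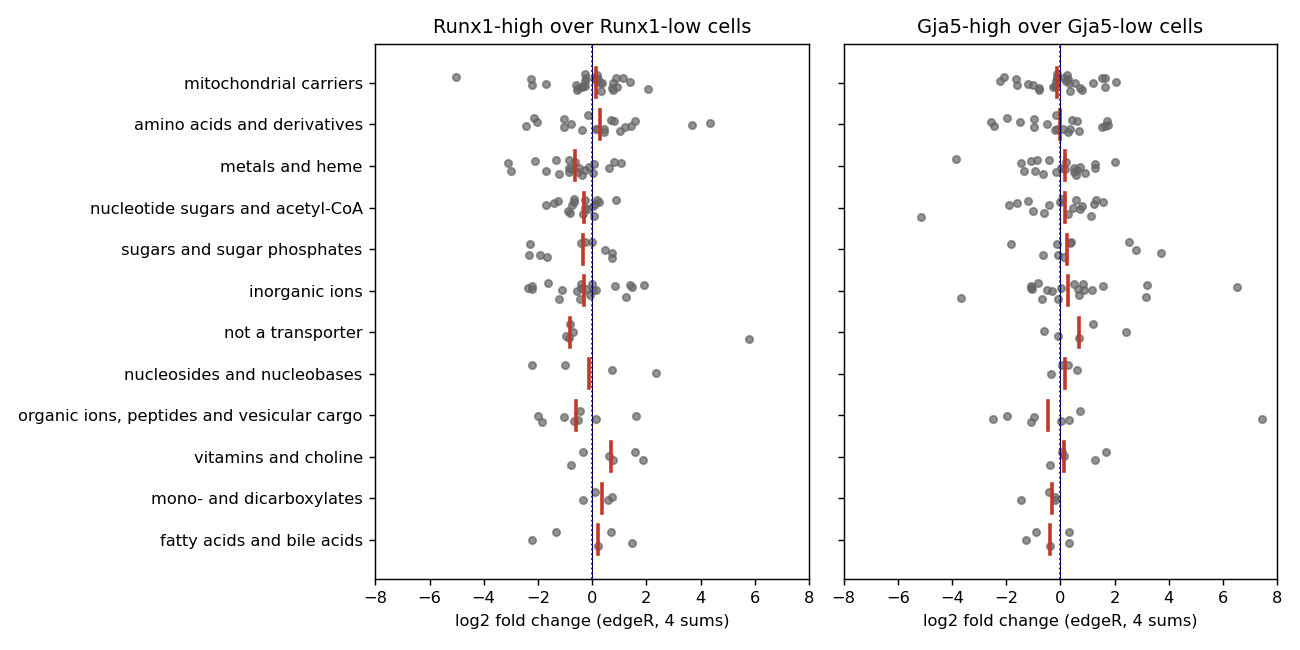
Log2 fold changes of the tested Slc genes by substrate class, Runx1-high over Runx1-low cells (left, 150 genes) and Gja5-high over Gja5-low cells (right, 149 genes). Each point is a gene, the red bars are class medians, the solid line is 0 and the dotted line is the median over all genes tested. In the left panel 16 of 21 metal and heme, 12 of 18 nucleotide sugar and acetyl-CoA and 13 of 20 inorganic ion transporters lay below 0. The medians of the nucleotide sugar and the inorganic ion class had opposite signs in the single libraries. Of the amino acid transporters 12 of 20 lay above 0.

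Markers moved with Gja5 as well. The 8 endothelial markers summed to 1583 and 3812 CPM in the Gja5-low sums and to 3481 and 5092 CPM in the Gja5-high sums, and the 5 arterial markers other than Gja5 to 196 and 329 CPM against 987 and 2015 CPM. The 7 mesenchymal markers were at 710 and 25.8 CPM against 990 and 667 CPM, and the 7 hematopoietic markers at 1277 and 799 CPM against 1050 and 273 CPM. Median depths were 140016 and 246822 counts in Gja5-low cells and 161402 and 230499 counts in Gja5-high cells. The part of endothelial and arterial composition in the transporter values was not tested.

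Across cells the members' median rho with Gja5 was 0.06 and 0.03, against 0.03 and 0.01 for all genes. For Gja5, 7 of 152 genes (4.61%) had a rho of at least 0.2 in size and the same sign in both libraries, against 5.14% of all genes. Slc45a4 (0.37 and 0.50), Slc12a7 (0.35 and 0.42) and Slc9a3r2 (0.33 and 0.45) reached 0.3 in both, 3 of 152 genes against 1.33% of all genes. After thinning they had 0.17 and 0.42, 0.10 and 0.57, and 0.39 and 0.40.

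Genes that work with these transporters were read from lists of the amino acid response, iron and heme handling, carrier partners and transporters outside the Slc symbols. In the amino acid list, which holds the serine synthesis enzymes, 8 of 10 genes were tested against Runx1. Of these 6 were higher in Runx1-high sums, against 49.7% of all genes, and 0 were called without the block, against 0.00941%. Asns and Chac1 were lower, with log2 fold changes of -0.64 and -1.70 without the block. With the library block 1 was called, against 1.56% of all genes (0.376% higher in Runx1-high cells). The called gene was Phgdh, the first enzyme of serine synthesis. It had 37.8 and 31.9 CPM in the Runx1-low and 146 and 232 CPM in the Runx1-high sums (log2 fold change 2.37 with the block, adjusted p 0.00318 with the library block and 0.630 without it, edgeR's quasi-likelihood test). Psat1, the next enzyme of the pathway, had 38.5 and 28.8 CPM against 119 and 110.1 CPM, with an adjusted p of 0.255 with the block. In the Gja5 comparison 0 of the 8 were called in either fit, against 0% of all genes without and 0.882% with the block. In the other 3 lists no gene was called in either comparison, with or without the block, among 9, 7 and 4 genes tested against Runx1 and 8, 7 and 4 tested against Gja5.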

How the data were processed

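Single-cell transcriptomes of PK44 cells from the E10.0 yolk sac were read from 2 tables of counts, one per library. The authors split reads by cell barcode, trimmed them, used HISAT2 (version 2.1.0) to align Read 1 to mouse transcripts of mm10, counted uniquely mapped reads with HTSeq and collapsed duplicates by UMI, and removed low-quality cells. The deposited values are the resulting UMI counts, which were not normalized. The strand setting of the counting is not given in the sources used here. The table of cell barcodes deposited beside the counts is another kind of file with no score or measurement, and it was used only to count shared barcodes.

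The Slc genes, substrate classes, marker lists and companion lists were chosen with earlier results of these data known. Classes were assigned by family. All 153 symbols matched GENCODE M21 (GRCm38, mm10). All 87 cells were kept and no doublet caller was run. CPM are counts divided by the total of a cell or of the summed library. For a share of cells the 95% interval is the exact Clopper-Pearson one and covers counting error only.

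Cells of 1 library are not replicates, so counts were summed per library and group of cells, the groups being above the library's median Runx1 or Gja5 CPM and the rest. The 4 sums were tested by the quasi-likelihood test of edgeR 4.0.16 (R 4.3.3) after filterByExpr and TMM scaling, without a block and with p-values adjusted by Benjamini-Hochberg over all genes tested (threshold 0.05), since the methods name none. Nothing states that the libraries came from separate litters, so p-values measure only the spread between these sums. The script was tested on simulated sums with large changes and no library effect, which says nothing about smaller changes. The library number pairs the sums, because both sums of a number are cells of that library. Their deviations from the group means correlated at 0.177 (Runx1) and 0.184 (Gja5) across genes. Alternatives were the library block, DESeq2 1.42.0, other size factors, no filter, outer tertiles of cells, cells thinned to 20000 counts, no collagen-rich cells and each library left out. After thinning, and after leaving out collagen-rich cells, the cells were divided again at the new median of the library. Named genes were a short list of well-known transporters, the 2 of highest mean CPM in a class, those at the edge of the rule, and up to 5 per direction with the largest fold change at 20 CPM or more and the same direction in both libraries. Promoter sequences are from RefSeq. Other steps ran in Python 3.11.15 (scipy 1.17.1, numpy 2.4.6, pandas 2.3.3, matplotlib 3.10.9). Some genes of the lists are not reported here.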

Additional observations from a re-analysis of the deposited data

How the results depend on the processing

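Over the settings tried, directions of the genes named by their fold change were kept except for Slc43a1 with Runx1, which was -0.53 after thinning and -0.75 after thinning with the library block, and Slc25a12 with Gja5, which was 0.89 with outer tertiles of cells. In both comparisons Slc8a1 and Slc48a1 had a value in only 8 of the 10 tested settings. In the rest they did not pass the filter on low counts, so their direction there is not known. In the Runx1 comparison the count of Slc genes called was 0 without and with the library block and 1 by DESeq2. In the Gja5 comparison it was 0 without a block, 1 with the library block as replicate block (Slc6a6), 3 by DESeq2, 1 without collagen-rich cells and with the block, and 0 after thinning with the block, the last 2 settings being chosen after seeing the data. The library block changed no other call of an Slc gene. The share of counts in mitochondrial carriers was 34.1% after thinning.

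Median rho with Runx1 was 0.013 (replicate 1) and 0.025 (replicate 2) after thinning, and 0.028 and 0.045 given the cell total. With Gja5 the values were 0.0082 and 0.0029 after thinning, and -0.0014 and 0.053 given the cell total. The cause was not tested. A single library leaves 1 sum per group and no test. Leaving out each library in turn gave 42.7% to 44% of genes higher in Runx1-high cells, 47.7% to 55.7% higher in Gja5-high cells, 6781 to 8143 CPM summed over the genes and 34.9% to 37.5% of counts in mitochondrial carriers. The median gene had 11 cells with 10 counts or more, and 21 of the 153 had fewer than 5 such cells.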

Other observations

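Many solute carrier genes fell outside the rule, and those with the most counts came from very few cells. Of the 373 symbols 148 had no count and 72 had a count in 1 to 8 cells. The organic ion, peptide and vesicular cargo class had 34 of 51 symbols at 0, the amino acid class 30 of 58 and the inorganic ion class 24 of 61, whereas 8 of 47 mitochondrial carriers and 2 of 28 nucleotide sugar transporters were at 0. No symbol of the Slc13 (sulfate and citrate), Slc14 (urea), Slc34 (phosphate) or Slc47 families had a count. Below the minimum of 9 cells, Slc9a5 had 243 counts in 6 cells, Slc12a5, a potassium-chloride cotransporter known from neurons, had 226 counts in 6 cells of replicate 2, and Slc35f1 had 126 counts in a single cell. Slc4a1, the anion exchanger of red cells, had no count. Counts of 0 say that no transcript was seen at this depth.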
